A study of Mus musculus with 10 samples.

Results

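Fat cells take up, carry, store and release fatty acids, and 10 genes of this route are described here in mouse preadipocytes exposed to BPS (bisphenol S, a chemical among the bisphenols that resemble bisphenol A). They are the fatty acid carriers Fabp4 and Fabp5, the uptake genes Cd36 and Lpl, the lipid droplet coat genes Plin2 and Plin3, the lipases Lipe and Pnpla2, and the triglyceride synthesis enzymes Dgat1 and Dgat2. The 10 were chosen by name, for what they do, from 32903 genes that the deposited transcripts could be matched to. Earlier results of these data were known when they were chosen. RNA came from preadipocytes, the precursors of fat cells, of inguinal subcutaneous fat (iSAT in the labels) of male wild-type C57BL/6 mice. In 5 libraries the cells had been given DMSO alone, the vehicle, and in 5 they had been given 2.5 µM BPS dissolved in it, so both groups carried the solvent. The series' title places the comparison within the question of how bisphenols promote adipogenesis. The labels state neither the time of exposure nor the age of the mice, and do not say if replicates came from different mice or dishes, so the p-values measure only the spread between these samples.

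A fat cell imports fatty acids in steps. Lipoprotein lipase, the product of Lpl, frees them from circulating triglycerides, Cd36 helps them across the plasma membrane, and the small fatty acid binding proteins carry them through the cytosol. Diacylglycerol acyltransferases join fatty acids to diacylglycerol in the last step of triglyceride synthesis. Perilipins coat the droplet in which the triglyceride is stored, and adipose triglyceride lipase and hormone-sensitive lipase break it down again. Fabp4, Cd36, Lpl and Lipe are known as genes that climb steeply as preadipocytes turn into fat cells, whereas Fabp5, Plin2 and Plin3 are made in many cell types.

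Of the 10 genes, 2 rose under BPS and 0 fell. Fabp4 rose by 25.7% and Fabp5 by 11.9%, and these were the only members whose normalised counts did not overlap between the groups. The calls come from the quasi-likelihood test of edgeR, with p-values adjusted by Benjamini and Hochberg's method over all 14597 genes tested, and a threshold of 0.05. The same test called 4.88% of all genes, 3.06% as higher and 1.82% as lower in BPS, and normalised counts did not overlap between the groups for 6.9% of all genes. Scaling by library size alone turned the split over all genes from 447 higher and 265 lower to 334 higher and 394 lower, while Fabp4 and Fabp5 kept their calls. At an unadjusted p under 0.05, which at least 2133 of all 14597 genes passed, 4 members were higher and 0 lower. Both the DESeq2 Wald test and limma-voom also called 2 members higher and 0 lower, where they called 949 and 695 of all genes. Fold changes of 8 members were above 0 and those of 2 below, with a median log2 fold change of 0.04, beside a median of 0.0004 over all genes tested.

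**Figure D1:**
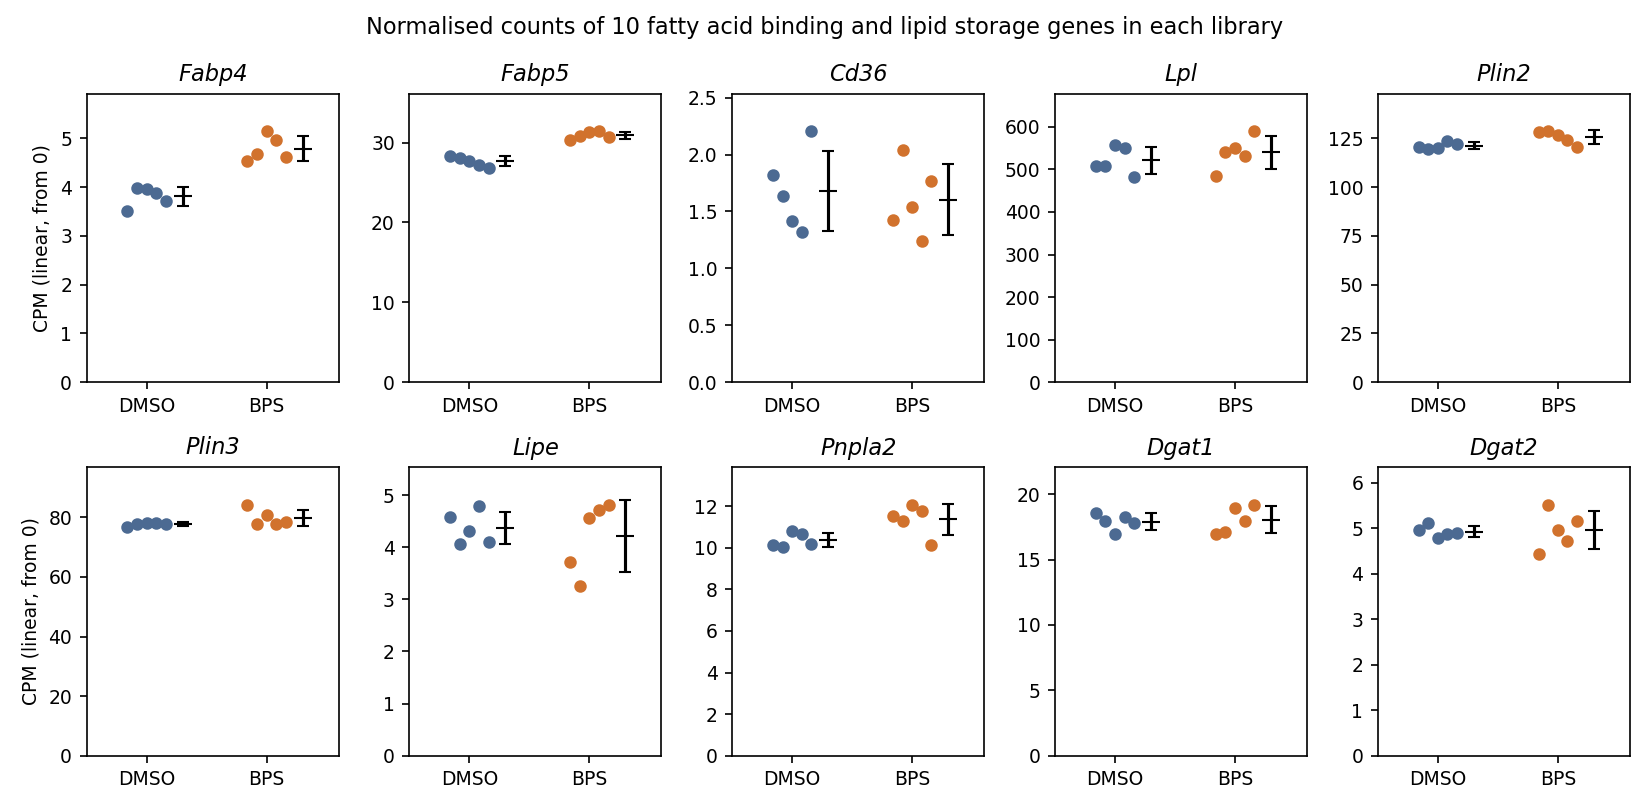
Normalised counts (CPM, counts scaled to a common library size, linear axes from 0) of each of the 10 genes in the 5 DMSO and 5 BPS libraries, with the group means and SD. The DMSO and BPS points are apart for Fabp4 (3.51 to 3.99 against 4.54 to 5.15 CPM) and Fabp5 (26.9 to 28.3 against 30.3 to 31.4 CPM) and overlap for the other 8 genes.

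Depth was even across the libraries, with 37920689 to 42717227 estimated counts per library. Median absolute log2 fold change was 0.06 over all genes tested and 0.16 over the 712 genes called. The 712 calls became 449 without DMSO replicate 2 and 462, 465 and 462 without BPS replicates 2, 3 and 4. The library numbers in the labels place all DMSO libraries before all BPS libraries, and a batch that followed that order cannot be told apart from the treatment. In RNA from whole cultures, fewer cells of a type and less RNA per cell cannot be told apart either.

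Fabp4 encodes the fatty acid binding protein of fat cells, a carrier that hands fatty acids to enzymes and to the nuclear receptor PPARγ and is widely used as a marker of fat cell differentiation. In DMSO its normalised counts were 3.51, 3.99, 3.95, 3.87 and 3.71 CPM in replicates 1 to 5. In BPS they were 4.54, 4.68, 5.15, 4.96 and 4.62 CPM. Every BPS library lay above every DMSO library, and this also held for the counts before normalisation, which were 129 to 156 in DMSO and 163 to 190 in BPS. The means were 3.81 ± 0.198 CPM in DMSO against 4.79 ± 0.254 CPM in BPS (SD, n = 5 each). Fabp4 rose by a log2 fold change of 0.33 (SE 0.07, 95% confidence interval 0.19 to 0.47; edgeR, adjusted p = 0.0154), an increase of 25.7% with an interval of 13.9% to 38.9%.

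The spread of Fabp4 between libraries was 5.19% of the mean in DMSO and 5.31% in BPS, below the 7.91% that counting error alone gives at its mean of about 160 counts. Leaving out any 1 library kept Fabp4 called, with log2 fold changes of 0.30 to 0.35 and adjusted p-values of 0.0168 to 0.0415. With curated transcript models only, Fabp4 kept its log2 fold change of 0.33 but missed the threshold (edgeR, adjusted p = 0.0505).

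Fabp5 encodes the epidermal fatty acid binding protein, a related carrier found in skin, macrophages and fat tissue. Its normalised counts in DMSO were 28.3, 28.1, 27.7, 27.2 and 26.9 CPM in replicates 1 to 5, and in BPS 30.3, 30.8, 31.3, 31.4 and 30.7 CPM. The highest DMSO library stayed below the lowest BPS library, although counts before normalisation overlapped (962 to 1099 in DMSO, 1073 to 1208 in BPS). The means were 27.6 ± 0.616 and 30.9 ± 0.459 CPM (SD, n = 5 each). Fabp5 rose by a log2 fold change of 0.16 (SE 0.02, interval 0.11 to 0.22; edgeR, adjusted p = 0.00361), which is 11.9% with an interval of 7.75% to 16.1%. It stayed past the threshold in 20 of 20 alternative settings, with a largest adjusted p of 0.0357.

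Ordered by p, Fabp5 stood at place 124 and Fabp4 at place 295 of the 14597 genes. The carrier with the lower counts thus had the larger fold change and the wider interval, and the intervals of the 2 log2 fold changes overlapped between 0.19 and 0.22. Whether the 2 fold changes differ from each other was not tested.

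**Figure D2:**
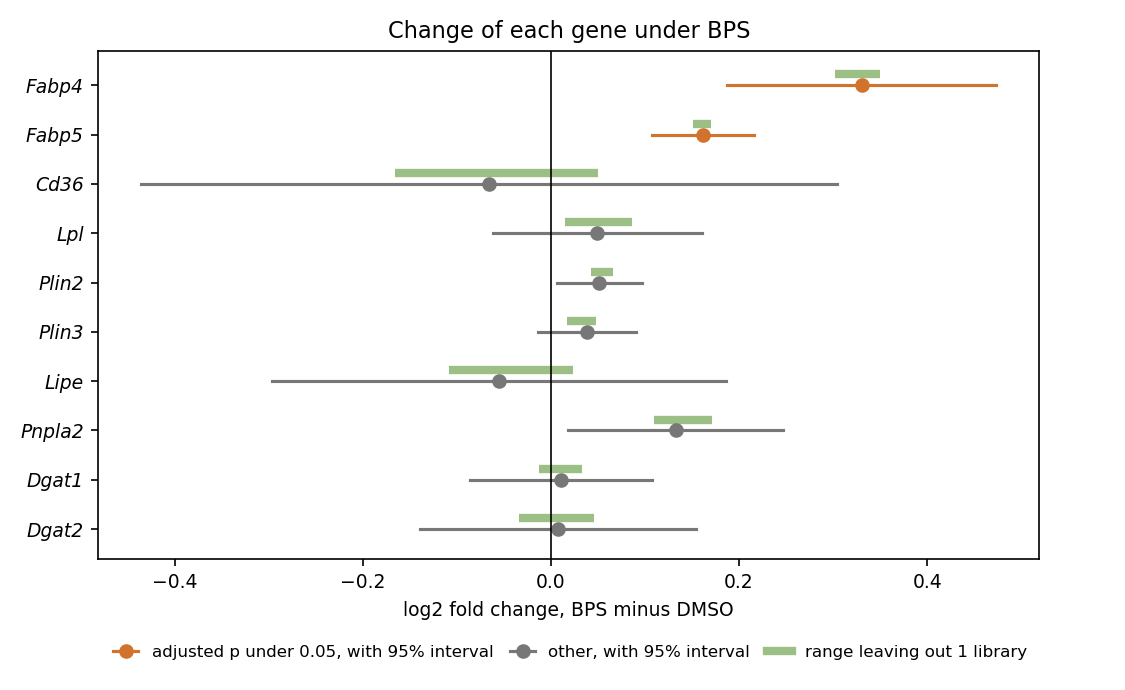
Log2 fold change of each of the 10 genes, BPS minus DMSO, with its 95% confidence interval and with the lowest and highest value when 1 library is left out. The intervals of Fabp4 (0.19 to 0.47), Fabp5 (0.11 to 0.22), Pnpla2 (0.02 to 0.25) and Plin2 (0.006 to 0.096) lie above 0, and only Fabp4 and Fabp5 passed the adjusted threshold.

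The other fatty acid binding proteins were scarce in these cells. Fabp1, the liver form, Fabp2, the intestinal form, Fabp6, the ileal bile acid carrier, and Fabp9, the testis form, had 0 counts in every library. A count of 0 does not exclude a level below detection. Fabp3, the heart and muscle form, had 19 to 31 counts per library, at 0.613 ± 0.083 CPM in DMSO against 0.673 ± 0.118 CPM in BPS (log2 fold change 0.14, SE 0.16; edgeR, adjusted p = 0.747). Fabp7, the brain form, had 17 to 27 counts, at 0.560 and 0.610 CPM (log2 fold change 0.12, SE 0.17; edgeR, adjusted p = 0.792). At that depth their standard errors were as large as their differences.

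Fabp4 and Fabp5 sit in a cluster of related genes on the same mouse chromosome. By gene order alone, in the GRCm38.p6 table of RefSeq, the genes from Fabp5 to Fabp12 run Fabp5, Gm33365, Gm9833, Pmp2, Fabp9, Fabp4 and Fabp12. Between and beside the 2 carriers that rose, Gm33365 had 0 to 1 counts, Pmp2 (the myelin fatty acid binding protein) 0 to 4, Fabp9 0 and Fabp12 0 to 1. Gm9833, a transcribed pseudogene, had 14 to 77 counts per library. The rise within the cluster was thus measured on the 2 genes that held most of its counts.

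Cd36 encodes a scavenger receptor and fatty acid translocase. Its normalised counts were 1.82, 1.64, 1.42, 1.32 and 2.21 CPM in DMSO and 1.43, 2.04, 1.54, 1.24 and 1.77 CPM in BPS. The groups overlapped over most of their range, with 50 to 79 counts per library in DMSO and 44 to 71 in BPS. The log2 fold change was -0.07 (SE 0.17, interval -0.44 to 0.30; edgeR, adjusted p = 0.889). The log2 fold change of Fabp4 lies just outside that interval, and that of Fabp5 inside it. The spread between libraries was 21.0% of the mean in DMSO and 19.3% in BPS, above the 12.8% that counting error alone gives.

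Lpl was the most abundant of the 10 genes. Its normalised counts were 508.6, 508.7, 557.5, 551.3 and 482.5 CPM in DMSO and 484.7, 542.0, 550.6, 532.3 and 590.0 CPM in BPS. BPS replicate 5 stood above every DMSO library and DMSO replicate 5 just below every BPS library, and the other 8 libraries shared a range. The means were 521.7 ± 31.8 and 539.9 ± 37.8 CPM (SD, n = 5 each), with a log2 fold change of 0.05 (SE 0.05, interval -0.06 to 0.16; edgeR, adjusted p = 0.676). Depth was not the limit for Lpl, since the spread between libraries was 6.09% in DMSO and 7.01% in BPS while counting error alone gives 0.712%. Leaving out BPS replicate 5 gave a log2 fold change of 0.0154, leaving out DMSO replicate 5 gave 0.0224, and leaving out BPS replicate 1 or DMSO replicate 3 gave 0.0858 or 0.0743, with no call in edgeR in any of these. The interval allows a change between a fall of 4.2% and a rise of 11.8%.

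Plin2 encodes the perilipin that coats small lipid droplets in most cell types and is unstable without lipid. It was at 120.6, 119.7, 120.1, 123.6 and 122.3 CPM in DMSO and at 128.2, 128.7, 126.7, 124.1 and 120.4 CPM in BPS. In BPS, 4 libraries lay above every DMSO library and replicate 5 lay within the DMSO range. The means were 121.2 ± 1.65 and 125.6 ± 3.41 CPM (SD, n = 5 each), and the log2 fold change of 0.05 (SE 0.02, interval 0.006 to 0.096) had an adjusted p of 0.202 in edgeR. Without BPS replicate 5 the log2 fold change was 0.07 (edgeR, adjusted p = 0.0706). It was 0.215 with exact versions (edgeR, adjusted p = 0.542) and 0.213 with curated models only (edgeR, adjusted p = 0.564), both of which leave out the predicted model with 90.9% of its counts.

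Plin3 encodes a perilipin that moves from the cytosol onto new droplets. Its normalised counts were 76.9, 77.7, 78.3, 78.2 and 77.7 CPM in DMSO, the tightest spread of the 10 genes, and 84.3, 77.9, 80.8, 77.7 and 78.5 CPM in BPS. BPS replicates 1 and 3 stood above the DMSO range, replicate 5 lay just above it, and replicates 2 and 4 lay within it. The log2 fold change was 0.04 (SE 0.02, interval -0.01 to 0.09; edgeR, adjusted p = 0.435). Without BPS replicate 1 it was 0.0177 (edgeR, adjusted p = 0.686).

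Pnpla2 encodes adipose triglyceride lipase, which removes the first fatty acid from stored triglyceride. It was at 10.1, 10.03, 10.8, 10.7 and 10.2 CPM in DMSO and at 11.5, 11.3, 12.1, 11.8 and 10.1 CPM in BPS. As for Plin2, 4 BPS libraries lay above every DMSO library and replicate 5 lay among them. The means were 10.4 ± 0.350 and 11.4 ± 0.749 CPM (SD, n = 5 each), a difference of 9.62%, and the log2 fold change of 0.13 (SE 0.05, interval 0.02 to 0.25) had an adjusted p of 0.189 in edgeR. Without BPS replicate 5 it was 0.17 (edgeR, adjusted p = 0.0572).

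Lipe encodes hormone-sensitive lipase, which acts next on diacylglycerol. Its normalised counts were 4.57, 4.07, 4.31, 4.79 and 4.11 CPM in DMSO and 3.71, 3.25, 4.55, 4.71 and 4.82 CPM in BPS. BPS replicates 1 and 2 lay below every DMSO library and replicate 5 above. The means were 4.37 ± 0.309 and 4.21 ± 0.691 CPM (SD, n = 5 each), with a log2 fold change of -0.05 (SE 0.11, interval -0.30 to 0.19; edgeR, adjusted p = 0.850).

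Dgat1 and Dgat2 encode unrelated enzymes for the same last step of triglyceride synthesis. Dgat1 was at 18.6, 17.9, 16.9, 18.3 and 17.8 CPM in DMSO and at 17.0, 17.1, 19.0, 17.9 and 19.2 CPM in BPS (log2 fold change 0.01, SE 0.04, interval -0.09 to 0.11; edgeR, adjusted p = 0.933). Dgat2 was at 4.95, 5.12, 4.79, 4.87 and 4.89 CPM in DMSO and at 4.44, 5.51, 4.96, 4.71 and 5.15 CPM in BPS (log2 fold change 0.01, SE 0.07, interval -0.14 to 0.15; edgeR, adjusted p = 0.983). For Dgat1, BPS replicates 3 and 5 lay above every DMSO library and the other 3 within the DMSO range, and for Dgat2 the BPS libraries reached beyond the DMSO range on both sides. Neither interval reaches the log2 fold change of 0.33 estimated for Fabp4.

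Counts per gene depend on transcript length, so levels were compared between genes in TPM (counts per transcript length, scaled to the same sum in every library), with lengths of the matching reference transcripts. Lpl had the highest level, at 317.9 ± 18.1 TPM in DMSO and 324.9 ± 23.6 TPM in BPS, above 98.0% of the genes with a length. Plin2 followed at 161.1 and 164.7 TPM, then Fabp5 at 70.2 and 77.6 TPM, Plin3 at 53.5 and 54.2 TPM and Dgat1 at 23.8 and 23.7 TPM. Fabp4 came sixth at 10.7 TPM in DMSO and 13.2 TPM in BPS, ahead of Pnpla2 at 9.98 and 10.8 TPM. Dgat2, Lipe and Cd36 were lowest, at 5.44, 3.09 and 1.30 TPM over all 10 libraries. Fabp4 and Pnpla2 were the only neighbours in this order whose ranges over the 10 libraries overlapped (9.91 to 14.2 and 9.63 to 11.4 TPM).

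**Figure D3:**
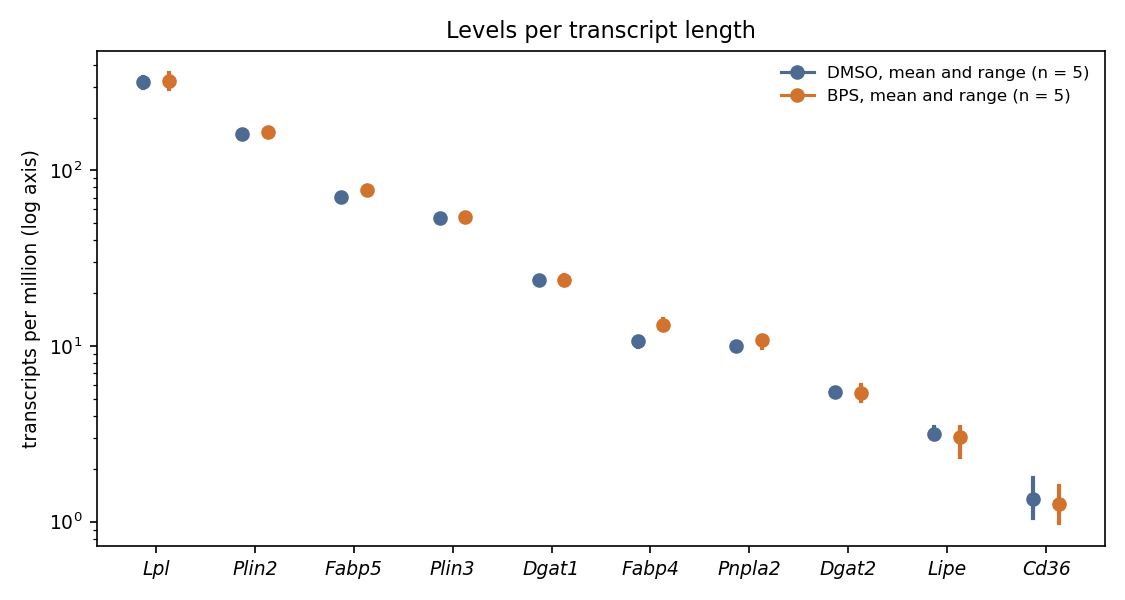
TPM (log axis) of the 10 genes, as mean and range over the 5 DMSO and over the 5 BPS libraries, ordered by mean level. Levels run from 321.4 TPM for Lpl to 1.30 TPM for Cd36, and Fabp4, at 11.9 TPM, is among the lower 5.

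The 2 carriers were thus far apart in level, with Fabp5 at 73.9 TPM and Fabp4 at 11.9 TPM over all libraries. The order rests on transcript lengths that suit some genes better than others. Curated RefSeq models held 99.9% of the counts of Fabp4 and 100% of those of Fabp5, Lpl, Plin3, Pnpla2 and Dgat2, but 76.7% for Dgat1, 25.2% for Lipe, 12.7% for Cd36 and 9.14% for Plin2, and the lengths come from curated models.

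The deposited table gives counts per RefSeq transcript, and the 10 genes had 33 of them. A gene's rise can sit on 1 transcript or on several, and for both carriers nearly all counts were on 1. NM_010634.3 held 99.6% of the counts of Fabp5 and was the only member transcript called among 16 tested (log2 fold change 0.17, SE 0.03; edgeR, adjusted p = 0.0389 over 37588 transcripts, of which 0.335% were called). NM_024406.2 held 99.9% of the counts of Fabp4, with a log2 fold change of 0.34 (SE 0.10) that did not pass when adjusted over transcripts (edgeR, adjusted p = 0.407).

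Other members divided their counts among models. Plin2 had 90.9% on a predicted model and 9.14% on the curated NM_007408.3, whose share was 8.62 ± 1.53% in DMSO and 9.74 ± 1.83% in BPS (exact two-sided permutation test, p = 0.310, adjusted 0.963). Lipe had 74.6% on a predicted model, with a share of 77.0 ± 7.34% in DMSO and 71.3 ± 3.23% in BPS (exact two-sided permutation test, p = 0.198, adjusted 0.963). Of 13 such shares tested, the smallest adjusted p was 0.963, and the smallest p this exact test can give is 0.00794. Only shares between 5 and 95% of a gene's counts were tested, which left out those of Pnpla2.

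Pnpla2 had 96.9% of its counts on a curated coding transcript and 3.13% on the noncoding NR_028142.1. The noncoding transcript had 17.6, 54.3, 0, 23.6 and 16.6 estimated counts in DMSO, and 14.7 in BPS replicate 2 and 0 in the other 4 BPS libraries. It thus had counts in 4 DMSO libraries and in 1 BPS library, with a log2 fold change of -2.80 (SE 1.63; edgeR, adjusted p = 0.893). Its share was 5.79 ± 5.03% in DMSO and 0.746 ± 1.67% in BPS, a difference that was not tested. The coding transcript had a log2 fold change of 0.208 (SE 0.08; edgeR, adjusted p = 0.608), against 0.133 for the whole gene. The counts of Cd36 were spread over 11 models, with a division that varied widely between libraries: its leading model held 42.2% of them, with 0 to 75 counts in DMSO and 0 to 44 in BPS.

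**Figure D4:**
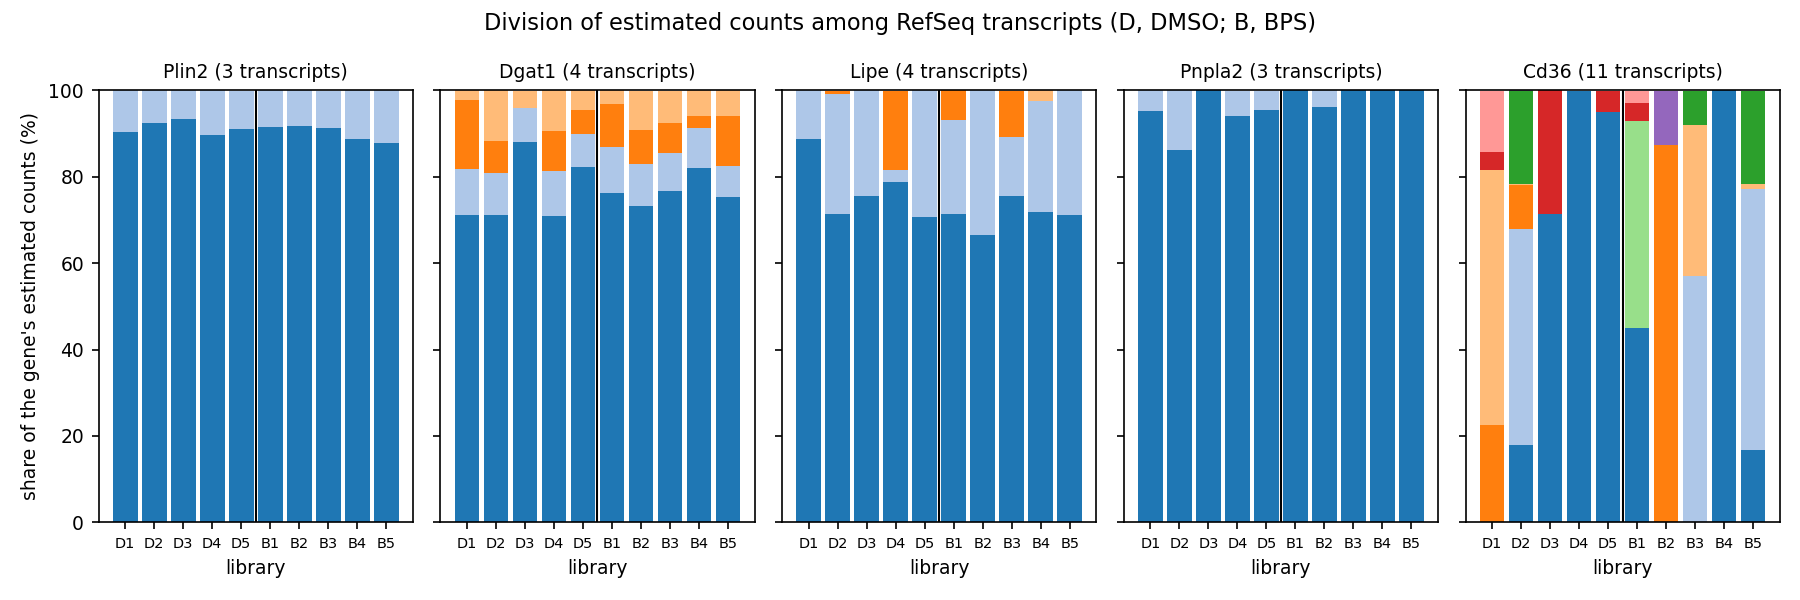
Share (%) of the estimated counts of Plin2, Dgat1, Lipe, Pnpla2 and Cd36 on each RefSeq transcript (1 colour per transcript), 1 bar per library, D1 to D5 for DMSO and B1 to B5 for BPS. Over the libraries the leading model holds 87.9 to 93.4% for Plin2, 86.1 to 100% for Pnpla2, 70.9 to 88.0% for Dgat1 and 66.5 to 88.7% for Lipe. The division among the 11 models of Cd36 varies most between libraries, with 0 to 100% on its leading model.

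Reads that match more than 1 gene are divided by estimation, so the reference transcripts were searched for shared stretches of 31 bases. Fabp4 shared 0 of its 866 stretches with any other gene. Fabp5 shared 33.1% of its 957 stretches with 5 genes or pseudogenes (Gm6166, Gm14328, Gm6100, Fabp5l2 and Gm13998), none of which was among the genes matched here, so its counts can hold reads from them. Plin2 shared 8.45% of its stretches with Gm12551, likewise unmatched. On the opposite strand, Lipe shared 19.2% of its stretches, nearly all with 4732471J01Rik, which had 5 to 10 counts per library in DMSO and 3 to 11 in BPS, and the strand setting of the counting is not given in the sources used here. On the same strand, Lpl shared 2.26% of its stretches, spread over 242 other genes, and Plin3 2.96%, spread over 660. On the opposite strand they shared 2.16% and 2.71%. Cd36, Pnpla2, Dgat1 and Dgat2 shared 0.

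Beyond the 10 genes, 7 lists of their partners held 143 genes, of which 108 were tested. Of these, 6 rose and 0 fell (edgeR), where the same test called 3.06% of all genes as higher and 1.82% as lower. Fold changes were above 0 for 57 and below 0 for 51, with a median log2 fold change of 0.01. The 6 became 3 without DMSO replicate 4 or without BPS replicate 2, and 2 with curated models only. At an unadjusted p under 0.05, which at least 2133 of all 14597 genes passed, 10 were higher and 6 lower. DESeq2 called 5 higher and 1 lower (949 of all genes), and limma-voom 7 higher and 0 lower (695 of all genes). The lower gene was Prkaca, the catalytic subunit of protein kinase A (119.5 and 114.6 CPM, log2 fold change -0.06, SE 0.02; edgeR, adjusted p = 0.0625), named after its value was seen.

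Among 14 tested genes of fatty acid uptake and activation, 1 rose. Cav1 encodes caveolin-1, the coat protein of the membrane pits through which fat cells take up fatty acids. Its mean was 192.4 ± 5.46 CPM in DMSO against 216.8 ± 4.82 CPM in BPS (SD), and the log2 fold change was 0.17 (SE 0.02; edgeR, adjusted p = 0.00131), and the groups did not overlap. With exact versions, the log2 fold change of Cav1 was 0.17 (edgeR, adjusted p = 0.00353). With curated models only it was -0.02 (edgeR, adjusted p = 0.953), and which models carried the rise was not tested. The fatty acid transport protein gene Slc27a1 was at 9.84 and 10.7 CPM (log2 fold change 0.12, SE 0.05; edgeR, adjusted p = 0.231).

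Of 13 tested partners of lipoprotein lipase and lipoprotein receptors, 3 rose, with a list median of 0.10, and 2 of them are described here. Lipg, the related endothelial lipase, was at 15.9 ± 1.33 CPM in DMSO against 19.0 ± 0.895 CPM in BPS (log2 fold change 0.26, SE 0.06; edgeR, adjusted p = 0.0232), and was called in 14 of 20 alternative settings. Apoe, a lipoprotein component that binds lipoprotein receptors, was at 9.47 ± 0.419 and 10.8 ± 0.443 CPM (log2 fold change 0.18, SE 0.05; edgeR, adjusted p = 0.0497) and was called in 3 of 20 settings, with adjusted p-values of 0.0434 to 0.143.

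The direct partners of lipoprotein lipase, named here for their role, did not pass. Angptl4, a secreted inhibitor of the enzyme, was at 79.2 CPM in DMSO against 75.1 CPM in BPS (log2 fold change -0.08, SE 0.03; edgeR, adjusted p = 0.176). Lmf1, which the enzyme needs to mature, was at 23.4 and 25.4 CPM (edgeR, adjusted p = 0.343). Gpihbp1, its anchor on capillary walls, was at 0.263 and 0.423 CPM, close to the lowest level tested (edgeR, adjusted p = 0.177).

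Of 17 tested lipid droplet protein genes, 0 rose and 0 fell (edgeR), with 0 higher and 1 lower at an unadjusted p under 0.05 and 0 calls by DESeq2 and limma-voom. Of 15 tested genes of lipolysis and its control, 0 rose and 0 fell (edgeR), with 1 higher and 1 lower at an unadjusted p under 0.05. Mgll, monoacylglycerol lipase, which takes the last fatty acid off, was at 5.58 CPM in DMSO against 7.08 CPM in BPS (log2 fold change 0.34, SE 0.09; edgeR, adjusted p = 0.0564) and was called by DESeq2 and by limma-voom. The activator and the inhibitor of the Pnpla2 enzyme were Abhd5, at 36.8 and 36.6 CPM (edgeR, adjusted p = 0.924), and G0s2, at 6.003 and 6.27 CPM (edgeR, adjusted p = 0.817).

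In glycerolipid synthesis, 1 of 18 tested genes rose. Mogat2, which adds a fatty acid to monoacylglycerol, was at 0.719 ± 0.048 CPM in DMSO against 1.08 ± 0.133 CPM in BPS, on 24 to 49 counts per library (log2 fold change 0.59, SE 0.13; edgeR, adjusted p = 0.0220). It was called in 12 of 19 settings, with adjusted p-values of 0.017 to 0.0731. Gpam, the mitochondrial enzyme of the first step, was at 67.5 and 70.1 CPM (edgeR, adjusted p = 0.478).

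**Figure D5:**
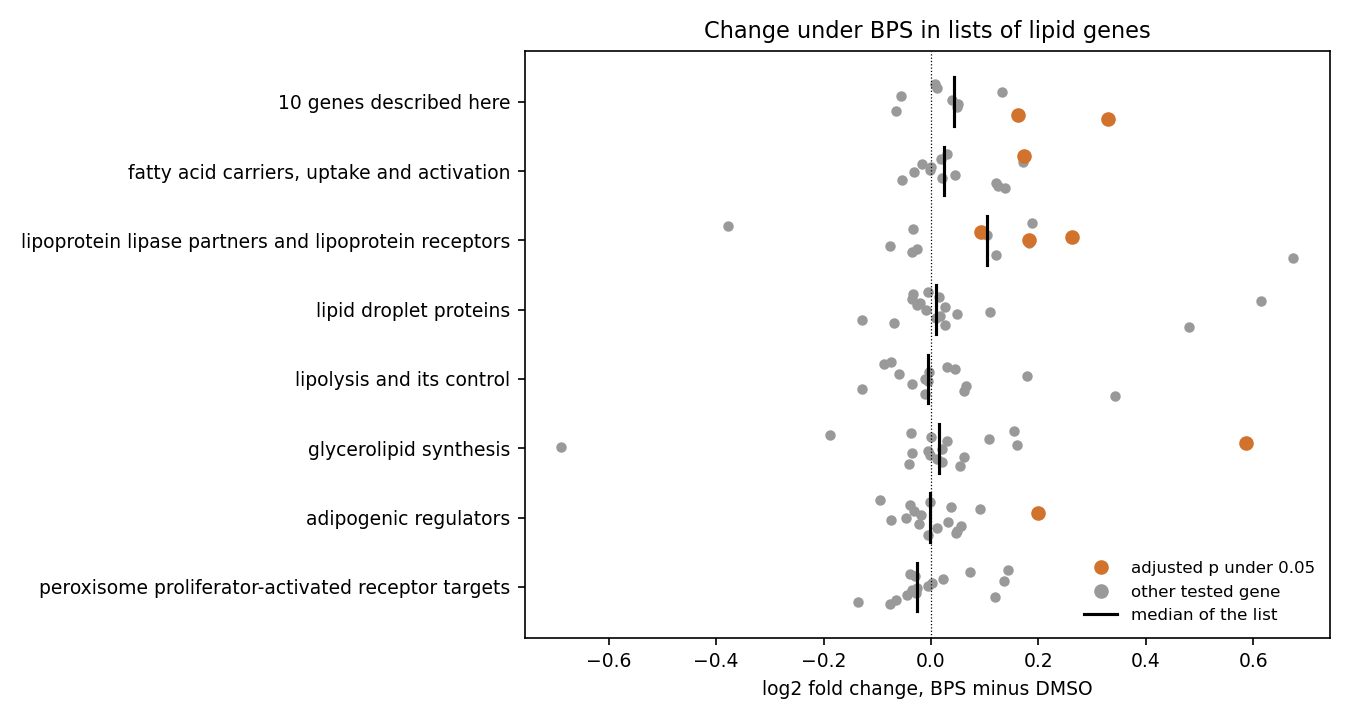
Log2 fold change, BPS minus DMSO, of each tested gene of the 10 described here and of 7 lists of lipid genes, with the median of each list as a vertical bar and genes past the adjusted threshold in colour. The coloured genes all lie to the right of 0, and the medians lie between -0.03 and 0.10.

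Fabp4, Cd36, Lpl, Lipe and Plin2 are known targets of PPARγ, the receptor that drives fat cell differentiation. Pparg was at 8.76 ± 0.307 CPM in DMSO against 8.73 ± 0.360 CPM in BPS (log2 fold change -0.005, SE 0.05; edgeR, adjusted p = 0.979). Cebpa, its partner, was at 25.4 ± 1.53 and 26.2 ± 0.800 CPM (log2 fold change 0.05, SE 0.04; edgeR, adjusted p = 0.617). Of 17 tested adipogenic regulators, 1 rose: Klf4, an early factor of differentiation, from 22.7 ± 0.222 to 26.1 ± 0.819 CPM (log2 fold change 0.20, SE 0.03; edgeR, adjusted p = 0.00229). Of 16 other tested PPAR targets, 0 rose and 0 fell (edgeR), with 0 higher and 3 lower at an unadjusted p under 0.05, 0 calls by DESeq2 and limma-voom, and a median of -0.03.

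The 12 preadipocyte markers were all detected, at levels that differed widely. Pdgfra was at 903.8 CPM in DMSO against 863.3 CPM in BPS and Dlk1 at 439.6 against 429.5 CPM. Dpp4 was at only 2.45 against 2.13 CPM and Pi16 at 2.02 against 2.21 CPM. The 12 summed to 7154 to 7304 CPM in DMSO and 7415 to 7812 CPM in BPS, ranges that did not overlap. Much of that sum was Col15a1, at 2485 against 2691 CPM, and Itgb1, at 1610 against 1701 CPM. By edgeR, 4 of the 12 rose (Cd34, Col15a1, Itgb1 and Thy1), where 3.06% of all genes were called higher. Fold changes were above 0 for 7 of the 12 and below 0 for 5, with 0 called lower by edgeR. At an unadjusted p under 0.05, 4 were higher and 1 lower. DESeq2 called 4 higher and 1 lower (Pdgfra), and limma-voom 4 higher and 0 lower. Over all 14597 genes tested, at least 2133 passed that unadjusted threshold, DESeq2 called 949 and limma-voom 695. Of 12 markers of mature fat cells, 8 had at most 3 counts in every library, among them Adipoq with 0 to 3 and Lep and Cidea with 0, and Plin1, the perilipin of mature fat cells, had 1 to 5. The adipocyte markers summed to 1.03 to 1.26 CPM in DMSO and 0.969 to 1.23 CPM in BPS, and of the 2 tested 0 rose or fell (edgeR), with 0 at an unadjusted p under 0.05 and 0 by DESeq2 and limma-voom. The 2 tested held most of that sum, on few counts. Slc2a4 was at 0.631 CPM in DMSO against 0.566 CPM in BPS, with 17 to 29 counts per library. Gpd1 was at 0.322 against 0.281 CPM, with 8 to 16 counts. The sums overlapped between the groups, and the part of fat cell content in the rise of Fabp4 was not tested.

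Fabp4 and Cd36 are also made by macrophages and capillary endothelium, and Fabp5 by macrophages. The 12 macrophage markers summed to 16.2 to 25.6 CPM in DMSO and 17.4 to 28.6 CPM in BPS, with Csf1r at 0 and 0 of 9 tested called (edgeR, with 0 at an unadjusted p under 0.05, and 0 by DESeq2 and limma-voom). The 12 endothelial markers summed to 40.4 to 48.5 and 40.4 to 48.7 CPM, with 0 of 12 called (edgeR, with 1 higher at an unadjusted p under 0.05, and 0 by DESeq2 and limma-voom). The sums of the 10 mural cell markers did not overlap, at 96.0 to 102.6 CPM in DMSO and 115.1 to 128.3 CPM in BPS. By edgeR, 4 of 9 tested rose (Cspg4, Mcam, Des and Cnn1), where 3.06% of all genes were called higher. DESeq2 called 4 and limma-voom 3, where they called 949 and 695 of all genes, and all 9 fold changes were above 0. Des was at 13.2 CPM in DMSO against 20.96 CPM in BPS and Cnn1 at 5.55 against 8.88 CPM. Mcam was at 20.1 against 25.9 CPM and Cspg4 at 39.1 against 43.5 CPM. The other tested markers were not called by edgeR. Notch3 was at 15.4 against 15.9 CPM, Rgs5 at 3.55 against 3.84 CPM and Myh11 at 2.05 against 2.38 CPM. Abcc9 was at 1.21 against 1.25 CPM and Kcnj8 at 0.295 against 0.359 CPM. Among the 10 mesothelial markers, Msln, Upk3b and Muc16 were at 0. The sums of the 10 did not overlap either, at 13.1 to 16.8 CPM in DMSO and 17.4 to 19.2 CPM in BPS. Of the 3 tested, Krt19 rose, Bnc1 was at 4.97 CPM in DMSO against 6.13 CPM in BPS (edgeR, adjusted p = 0.181) and Wt1 at 0.849 against 0.569 CPM (edgeR, adjusted p = 0.155). At an unadjusted p under 0.05, which at least 2133 of all 14597 genes passed, 2 were higher and 1 lower. DESeq2 and limma-voom each called 1 higher and 0 lower. The part of the preadipocyte, mural and mesothelial markers in the rise of Fabp4, Fabp5 and the 6 other genes was not tested.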

How the data were processed

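RNA was sequenced in 5 DMSO and 5 BPS libraries, from total RNA with a directional kit, per the labels' protocols. The authors deposited estimated counts for 107384 RefSeq transcripts, made with kallisto 0.42.4 per the submitters' processing notes. The index, genome build and strand setting are not given in the sources used here, so no coordinates are printed. Accessions without version were matched to a RefSeq gene table (GRCm38.p6, names and order only). This placed 86722 transcripts, with 93.1% of all counts, in 32903 genes, and the remaining 6.9% of the counts stayed out of library sizes and tests.

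Estimated counts were summed per gene, rounded, filtered with filterByExpr, scaled by TMM (factors 0.9854 to 1.008) and tested with edgeR's quasi-likelihood method without covariates. The code was tested on simulated counts. The SE is the log2 fold change over the square root of F. CPM uses TMM-scaled library sizes, and intervals for counting cover counting error only. TPM was computed from the estimated counts with lengths of GENCODE M21 transcripts matched to RefSeq accessions, for 23909 genes. Transcript shares with a mean between 5 and 95% were compared with an exact permutation test.

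Named genes are the 10 members, up to 5 called genes of each list by smallest p, and Adipoq, Plin1, Pparg and Cebpa. In all, 1 gene that met this rule is not reported here. Others were named for their role or after their values were seen. The members and lists were chosen with earlier results of these data known. Alternatives were a replicate block, 3 scalings, 2 filters, limma-voom, the Wald test of DESeq2, exact-version matching, curated models only, transcripts without summing and leaving out each library. Tools were edgeR 4.0.16, DESeq2 1.42.0 and limma 3.58.1 in R 4.3.3, and scipy 1.17.1 in Python 3.11.15.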

Additional observations from a re-analysis of the deposited data

How the results depend on the processing

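Of the 712 genes called, the number changed by more than 1.5 times with the replicate block (374, 234 higher and 140 lower), exact-version matching (328) and curated models only (311), and ranged from 449 to 774 when 1 library was left out (449 without DMSO replicate 2, and 462, 465 and 462 without BPS replicates 2, 3 and 4). Replicate numbers did not pair the samples, with correlations of same-numbered deviations from -0.0316 to 0.079, and 2 of 5 numbers matched their own best. With library size alone the split was 334 higher and 394 lower, and the median of all genes moved by -0.01. The 2 changed members became 1 with exact versions (Fabp4 not tested), curated models (Fabp4 missed the threshold) and transcripts without summing. They stayed 2 with the block, where Fabp4 had an adjusted p of 0.049, and with each library left out. The 6 changed pathway genes became 2 with curated models, and ranged from 3 to 6 with 1 library left out (3 without DMSO replicate 4 or BPS replicate 2).

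Fold changes of 4 uncalled members, Cav1 and Pparg changed sign, and the cause was not tested. On the log2 scale Cd36 was 0.0230 with exact versions and -0.165 to 0.0504 with 1 library left out, and Lipe was 0.261 with exact versions, 0.232 with curated models and -0.108 to 0.0240 with 1 library left out. Dgat1 was -0.00421 with library size alone, -0.00161 with exact versions and -0.0129 to 0.0326 with 1 library left out, and Dgat2 was -0.00737 with library size alone and -0.0334 to 0.0455 with 1 library left out. Cav1 was -0.0186 and Pparg 0.0673 with curated models, and Pparg was -0.0184 to 0.0132 with 1 library left out. Of the members' values under alternatives, 182 kept direction and call, 1 lost its call and 15 changed sign. Counting error alone gives 12.8% for Cd36 (44 to 79 counts per library) and 0.712% for Lpl, below the spread between libraries for both.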
